A study of Mus musculus and Rattus norvegicus with 21 samples.

Results

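The data describe 9 genes that encode relatives of GLIS3, the Krüppel-like zinc finger protein whose gene was inactivated in the mutant mice of the study: Glis1 and Glis2, Gli1, Gli2 and Gli3, and Zic1, Zic2, Zic4 and Zic5. They were chosen by name, for the zinc finger domain they share with GLIS3, out of 21000 protein-coding mouse genes with a curated RefSeq transcript. At each gene, the H3K4me3 and H3K27me3 regions over the gene and within 1 kb of its transcription start sites (TSSs) were compared across 4 groups of thyroid glands, and NKX2.1 and PAX8 peaks were located within 50 kb of the TSSs.

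The study mapped transcription factors and histone marks in thyroid by ChIP-Seq, in which fragments of DNA bound by a protein or carrying a modified histone are recovered with an antibody and sequenced. Of the 21 samples, the 8 histone libraries and the 2 mouse factor libraries were used here. All mice were C57BL/6 and, by the labels, 1 month old. The 4 histone groups were WT mice on a normal diet (WT-ND; NIH-31), Glis3-deficient mice on the same diet (Glis3KO-ND; B6.Glis3<tm2(mCherry)Amj>), WT mice on a low iodine diet (WT-LID; TD.95125) and Glis3-deficient mice on that diet (Glis3KO-LID). The NKX2.1 and PAX8 libraries came from thyroids on the LID, from mice labelled WT. The study's methods give a different origin for the factor libraries, namely mice with an EGFP tag on GLIS3 that were older than the labels say, so the genotype behind the factor peaks was not settled. Each mark or factor had 1 library per group, so no difference between groups has a replicate check and no test was made. Where values are given for the 4 libraries in turn, the order is WT-ND, Glis3KO-ND, WT-LID, then Glis3KO-LID. The files hold the positions of regions and peaks but no read counts, so the depth behind a region is unknown.

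GLI1, GLI2 and GLI3 are the transcription factors at the end of the Hedgehog pathway. GLI2 is the main activator, GLI3 is often cut to a repressor when the pathway is silent, and Gli1 is itself a target gene that is switched on by the signal. The GLIS and ZIC proteins carry a similar array of zinc fingers. GLIS proteins are not standard Hedgehog effectors, and ZIC proteins are best known from the neural plate, the cerebellum and the left-right axis of the embryo. In chromatin, H3K4me3 marks promoters that are open to transcription, and H3K27me3 is set by Polycomb repressive complex 2 over silent developmental genes. A promoter with both marks is called bivalent. The thyroid gland holds follicular cells, C cells, fibroblasts and vessels, and in bulk tissue, 2 marks on the same DNA and each mark in different cells cannot be told apart. For the same reason, fewer cells of a type and less mark per cell cannot be told apart.

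The lists differed in length, which bears on every comparison of H3K27me3 below. H3K4me3 regions numbered from 15692 to 17044 in the 4 libraries. H3K27me3 regions numbered 3050, 4116 and 2631 in WT-ND, Glis3KO-ND and WT-LID but 18040 in Glis3KO-LID, where they covered 55.1 Mb against 7.47 to 13.3 Mb in the others. Of 10 follicular cell markers, 9, 10, 8 and 10 had H3K4me3 at a start site in the 4 libraries in turn, with Tg at 0 bp in both WT libraries. It was found at 1 to 3 of 6 fibroblast markers, 2 or 3 of 4 C cell markers, 2 to 4 of 4 endothelial markers, 0 or 1 of 3 parathyroid and of 3 adipocyte markers, and at 0 of 5 immune and 0 of 3 skeletal muscle markers. At Glis3 itself, H3K4me3 covered 1337, 1548, 1311 and 1356 bp of the 2001 bp window in the 4 libraries in turn, and no H3K27me3 region touched the gene in any library. A histone region at the start site does not check the deletion.

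The promoters themselves differed in their content of CpG dinucleotides, the base pairs that mark the promoters Polycomb and H3K4 methyltransferases most often occupy. RefSeq promoter sequences (GRCm38.p6, 300 bases each) were at hand for 6 of the 9 genes, not for Glis2, Gli1 and Zic2. The observed to expected ratio of CpG was 1.12 for Gli3, 0.969 for Zic1, 0.96 for Glis1, 0.83 for Gli2, 0.545 for Zic4 and 0.51 for Zic5, against a median of 0.588 over 20488 promoters. Only 1.99% of promoters had a ratio as high as that of Gli3. The 250 bases before the TSS are shown for these 6 genes, with each CpG in capitals. The marks described next refer to the window within 1 kb and did not reach these bases in every library. They lie at chr4:107434469-107434718 (plus strand), chr1:119053620-119053869 (minus strand), chr13:15463473-15463722 (plus strand), chr9:91365769-91366018 (minus strand), chr14:122465659-122465908 (minus strand) and chr9:91368722-91368971 (plus strand), the last before the upstream one of the TSSs of Zic4.
Glis1: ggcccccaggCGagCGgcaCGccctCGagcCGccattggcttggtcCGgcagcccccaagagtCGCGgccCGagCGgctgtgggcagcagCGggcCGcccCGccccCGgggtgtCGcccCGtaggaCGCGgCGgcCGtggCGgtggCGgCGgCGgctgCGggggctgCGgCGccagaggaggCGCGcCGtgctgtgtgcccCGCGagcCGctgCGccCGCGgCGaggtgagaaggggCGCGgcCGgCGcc
Gli2: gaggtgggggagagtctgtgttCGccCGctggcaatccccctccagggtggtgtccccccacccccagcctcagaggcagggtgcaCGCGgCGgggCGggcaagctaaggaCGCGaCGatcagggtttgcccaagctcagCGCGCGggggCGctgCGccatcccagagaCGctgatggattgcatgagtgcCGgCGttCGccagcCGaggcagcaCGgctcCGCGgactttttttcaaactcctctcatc
Gli3: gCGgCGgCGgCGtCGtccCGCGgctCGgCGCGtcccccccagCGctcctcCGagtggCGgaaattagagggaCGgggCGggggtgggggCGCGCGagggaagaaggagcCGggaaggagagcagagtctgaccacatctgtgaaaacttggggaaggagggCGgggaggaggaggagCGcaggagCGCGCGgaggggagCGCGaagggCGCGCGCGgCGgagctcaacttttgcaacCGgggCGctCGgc
Zic1: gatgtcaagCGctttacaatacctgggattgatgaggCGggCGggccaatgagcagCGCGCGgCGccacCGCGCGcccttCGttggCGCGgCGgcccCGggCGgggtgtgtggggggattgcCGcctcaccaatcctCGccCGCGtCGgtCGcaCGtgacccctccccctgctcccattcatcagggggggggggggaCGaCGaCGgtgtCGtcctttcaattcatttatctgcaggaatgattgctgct
Zic5: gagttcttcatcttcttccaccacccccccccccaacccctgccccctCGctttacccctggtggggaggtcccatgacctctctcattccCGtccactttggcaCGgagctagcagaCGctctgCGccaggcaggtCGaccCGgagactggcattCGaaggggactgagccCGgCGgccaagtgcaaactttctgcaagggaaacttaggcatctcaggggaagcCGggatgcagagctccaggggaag
Zic4: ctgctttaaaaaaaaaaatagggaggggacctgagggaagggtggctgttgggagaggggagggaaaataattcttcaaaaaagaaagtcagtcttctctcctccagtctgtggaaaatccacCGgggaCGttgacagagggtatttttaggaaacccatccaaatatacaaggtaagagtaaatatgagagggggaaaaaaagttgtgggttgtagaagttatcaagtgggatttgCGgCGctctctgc

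CpG numbered 41 in the 250 bases of Glis1, 34 in Gli3, 27 in Zic1, 22 in Gli2, 11 in Zic5 and 4 in Zic4. Across all promoters, 49.1% had a CpG ratio of at least 0.6. H3K27me3 lay within 1 kb of the TSS in all 4 libraries at 4.68% of these promoters and at 2.14% of those below that ratio. Gli3 and Zic1 belong to the CpG-rich class and were marked in all 4 libraries. Glis1 and Gli2 belong to it too and were marked in 3 and in 1 of them. Of the genes below that ratio, Zic5 was marked in all 4 libraries and Zic4 in 3.

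H3K4me3 was present within 1 kb of a TSS at 7 of the 9 genes in WT-ND and at 8 of 9 in each of Glis3KO-ND, WT-LID and Glis3KO-LID. Over all genes, 62.2%, 62.5%, 63.0% and 60.1% were marked in those libraries. Glis1, Glis2, Gli2, Gli3, Zic2 and Zic5 were marked in all 4 libraries, 6 of 9 against 56.6% of all genes. The genes that lacked a region in at least 1 library were Gli1, Zic1 and Zic4. H3K27me3 was present at 4 of 9 genes in WT-ND, 7 of 9 in Glis3KO-ND, 7 of 9 in WT-LID and 8 of 9 in Glis3KO-LID. The same share over all genes was 6.44%, 8.68%, 6.5% and 17.5%. Gli3, Zic1, Zic2 and Zic5 were marked in all 4 libraries, 4 of 9 against 4.18% of all genes. Zic1 and Zic4 share their surroundings, since their TSSs are 3204 bp apart at the closest, and the TSSs of Zic2 and Zic5 are 9726 bp apart. The 9 genes therefore represent 7 loci.

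Both marks fell in the window of the same gene in the same group at 4, 6, 6 and 7 of the 9 genes in the 4 libraries in turn, against 5.02%, 6.56%, 5.21% and 10.7% of all genes. Gli3, Zic2 and Zic5 had both marks in all 4 groups, 3 of 9 against 2.38% of all genes. Glis2 was the only one of the 9 with no H3K27me3 region in any library, and it was covered by H3K4me3 in every one. With each H3K27me3 list reduced to its 2631 widest regions, the number in the shortest list, the counts of marked genes were 4, 7, 7 and 7. This made the number of regions equal but not the length they cover. The narrowest region kept was 1001, 1262, 1001 and 4869 bp wide in the 4 libraries in turn.

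**Figure D1:**
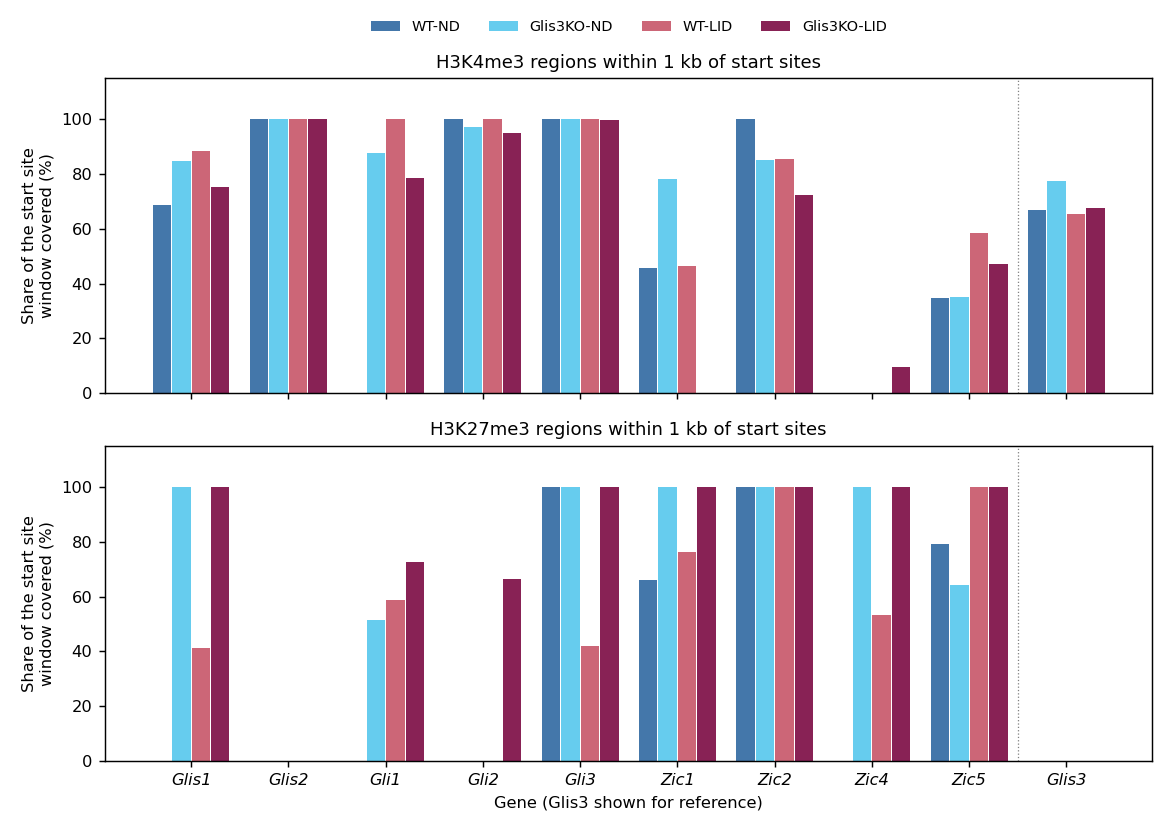
Bars give the share of the window within 1 kb of the TSSs that lay in H3K4me3 (upper panel) or H3K27me3 (lower panel) regions, in percent, for the 9 genes and Glis3 in 4 groups of 1 library each, with no error bars. Glis2 and Gli3 are fully or nearly fully covered by H3K4me3 in all 4 groups, Zic2 is fully covered by H3K27me3 in all 4, and Glis2 and Glis3 have no H3K27me3 bar.

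Of the GLIS genes, Glis1 had H3K27me3 at its TSS in 3 libraries and Glis2 in none. Glis2, which encodes a factor known for its role in the kidney, where its loss causes nephronophthisis, lies at chr16:4594713-4615957 on the plus strand. H3K4me3 covered all 2001 bp around its TSS in each of the 4 libraries. The regions were 2572, 2872, 3658 and 2828 bp wide in the 4 libraries in turn, and only 2.7% of the H3K4me3 regions of WT-LID were as wide as that in WT-LID. Outside the promoter, 1 further H3K4me3 region of 501 bp lay inside the gene in Glis3KO-ND, from 7366 to 7866 bp after the TSS. There was no H3K27me3 within Glis2 in any library, including the long list of Glis3KO-LID.

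Glis1, a factor that can promote the reprogramming of somatic cells, spans 200341 bp at chr4:107434719-107635059 on the plus strand. H3K4me3 covered 1379, 1694, 1774 and 1508 bp of its window in the 4 libraries in turn. WT-ND was the lowest and WT-LID the highest, and the region spanned the TSS in each library. H3K27me3 covered 0, 2001, 828 and 2001 bp of the window in the same order. In WT-LID the region began 173 bp after the TSS, whereas in both Glis3KO libraries it spanned the TSS. Its width was 3118 bp (Glis3KO-ND) and 12076 bp (Glis3KO-LID). Over the whole gene, H3K27me3 regions covered 0.5%, 1.69%, 1.25% and 16.8% in the 4 libraries in turn. The single region in WT-ND was 1001 bp wide, the smallest width in the list, and lay 40170 bp after the TSS. In Glis3KO-LID the gene held 13 regions spread from its start to its end, and with lists of equal length the share there was 4.84%.

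Gli2 had H3K4me3 in every library and no H3K27me3 in 3 of the 4. It lies at chr1:118834061-119053619 on the minus strand and is 219559 bp long. H3K4me3 covered 2001, 1943, 2001 and 1904 bp of its window in turn, in regions 2907 to 3508 bp wide that spanned the TSS. H3K27me3 covered 0 bp in WT-ND, Glis3KO-ND and WT-LID, and 1327 bp in Glis3KO-LID. Gli2 was the 1 gene of the 9 marked by H3K27me3 in Glis3KO-LID and in no other library, as were 7.33% of all genes. That region was of ordinary width for its list, in which 53.6% of regions were at least as wide. It was not among the widest 2631, so no H3K27me3 was left at Gli2 with lists of equal length.

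Gli3 carried both marks in its window in every group, though in WT-LID no H3K27me3 was left when regions under 2 kb were set aside. It lies at chr13:15463723-15730026 on the plus strand and is 266304 bp long. H3K4me3 covered 2001, 2001, 2001 and 1998 bp of its window in the 4 libraries in turn. H3K27me3 covered 2001, 2001, 838 and 2001 bp in the same order. WT-LID was the low library, with a region of 1572 bp that ended 163 bp before the TSS, so it was the 1 group in which H3K27me3 did not reach the start site. In WT-ND, 2001 bp were in regions of both marks, in Glis3KO-ND 2001 bp, in WT-LID 838 bp and in Glis3KO-LID 1998 bp. Over the whole gene, promoter included, H3K27me3 covered 1.19%, 0.962%, 0% and 3.41% of the length.

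Gli1, the Hedgehog target gene, had neither mark in its window in WT-ND and both in the other 3 groups. It is 11698 bp long and lies at chr10:127329882-127341579 on the minus strand. H3K4me3 covered 0, 1753, 2001 and 1575 bp of its window in the 4 libraries in turn. WT-ND was not empty, because an H3K4me3 region of 1146 bp began 1116 bp after the TSS, just outside the window. The regions of the other libraries were 3226, 3724 and 3072 bp wide and ran from before the TSS to 2473, 2563 and 2497 bp after it. H3K27me3 covered 0, 1029, 1176 and 1452 bp of the window in the 4 libraries in turn. Over the gene, H3K27me3 covered 10.9%, 15.3%, 13.6% and 86.2%. In Glis3KO-LID the cover came from 2 regions, of 5956 and 9686 bp, and the second ran past the end of Gli1 into the neighbouring Arhgap9.

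**Figure D2:**
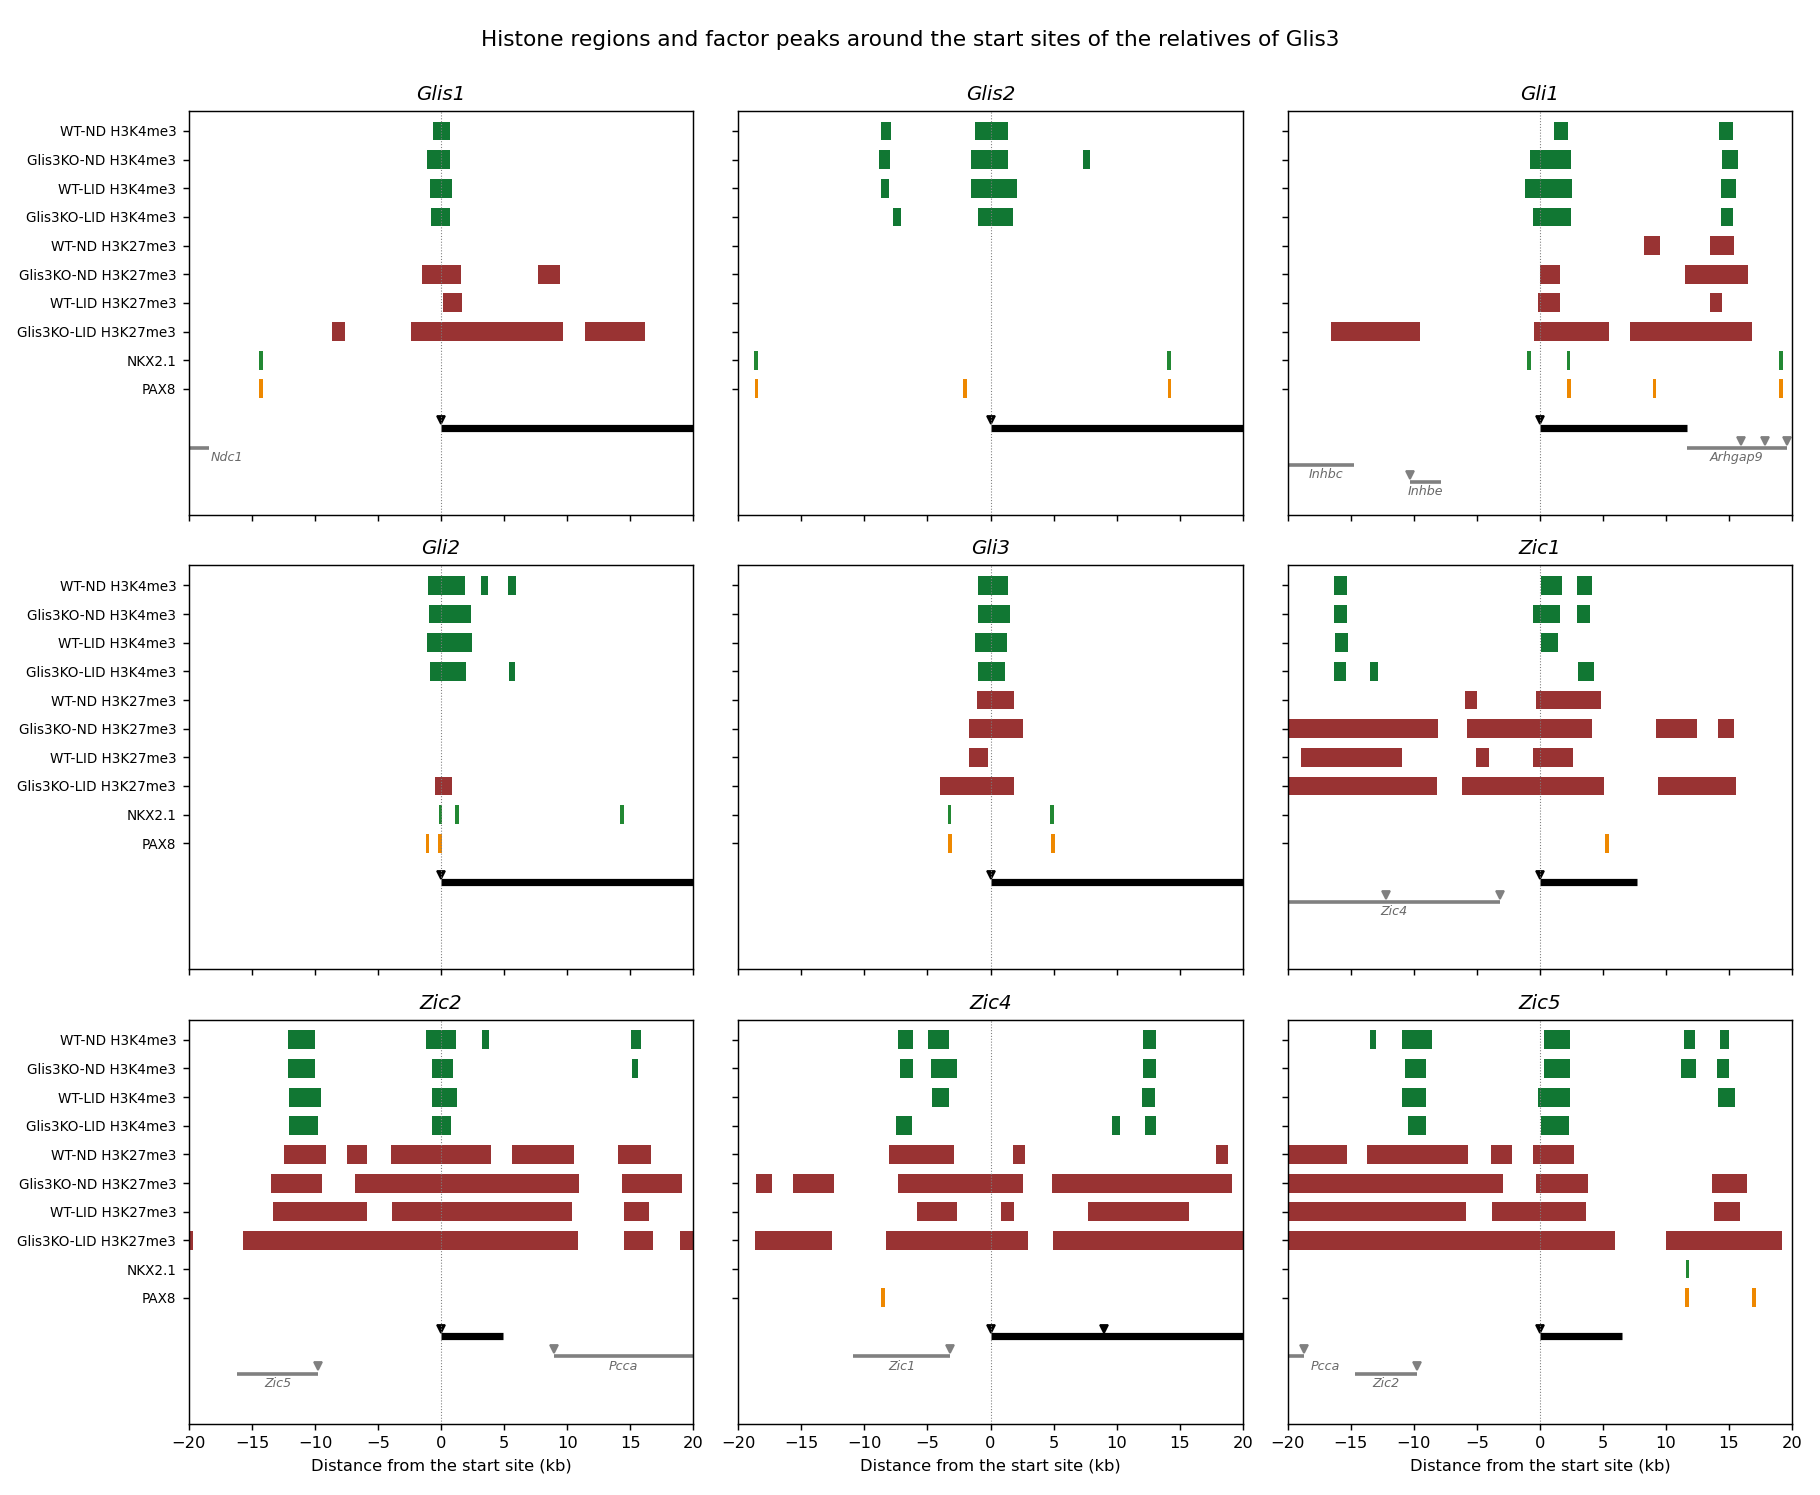
Boxes give H3K4me3 regions (upper 4 rows, green), H3K27me3 regions (next 4 rows, red), NKX2.1 and PAX8 peaks (lowest rows) within 20 kb of the first TSS of each gene, against the distance from it in kb in the direction of transcription. Black bars are the named gene, grey bars other genes and triangles TSSs. Zic2 has an H3K27me3 region over its TSS in every library, from 7949 to 26566 bp wide, Glis2 has none in any, and Gli2 has one in Glis3KO-LID alone.

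The H3K27me3 regions at the Zic genes ranged from 1001 to 26566 bp in width. Zic2 and Zic5 stand head to head on chromosome 14. Zic2, a gene whose loss disturbs forebrain patterning, lies at chr14:122475384-122480328 on the plus strand. H3K27me3 covered all 2001 bp of its window in each of the 4 libraries, and 80.0%, 100%, 100% and 100% of the gene in the 4 libraries in turn. The region over the TSS was 7949, 17744, 14259 and 26566 bp wide in that order. It was among the widest 4.66%, 1.87%, 1.9% and 0.726% of its list. Within it stood an H3K4me3 region over the TSS that covered 2001, 1703, 1714 and 1450 bp of the window.

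Zic5 lies at chr14:122459160-122465658 on the minus strand. H3K27me3 covered 1588, 1286, 2001 and 2001 bp of its window in the 4 libraries in turn, and 41.8%, 58.6%, 56.1% and 91.8% of the gene. In Glis3KO-LID the 26566 bp region of Zic2 also covered the TSS of Zic5, so the genes shared 1 region there, whereas in the other 3 libraries each had its own. H3K4me3 covered 698, 703, 1171 and 942 bp of the window. These regions were 2096 to 2536 bp wide and lay mostly downstream of the annotated TSS. They began 303, 298 and 59 bp after it in WT-ND, Glis3KO-ND and Glis3KO-LID and spanned it in WT-LID.

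Zic1 and Zic4 are a second pair, on chromosome 9, with genes that are jointly deleted in some patients with Dandy-Walker malformation of the cerebellum. Zic1 lies at chr9:91358058-91365768 on the minus strand. H3K27me3 covered 1322, 2001, 1529 and 2001 bp of its window in the 4 libraries in turn, and 63.1%, 53.4%, 33.8% and 66.2% of the gene. In both Glis3KO libraries a single region ran over the TSS of Zic1 and the upstream TSS of Zic4, with a width of 9921 bp (Glis3KO-ND) and 11308 bp (Glis3KO-LID). In WT-ND and WT-LID the Zic1 region was 5190 and 3134 bp wide and reached 321 and 528 bp upstream of the TSS. H3K4me3 covered 915, 1563, 929 and 0 bp of the Zic1 window. Glis3KO-LID had an H3K4me3 region of 1266 bp inside the gene, which began 3058 bp after the TSS.

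Zic4, at chr9:91368972-91389351 on the plus strand, has 2 annotated TSSs and therefore a window of 4002 bp. H3K27me3 covered 0, 4002, 2135 and 4002 bp of it in the 4 libraries in turn. Both Glis3KO libraries were complete and WT-ND was empty, although WT-ND had 2 regions of 1001 bp inside the gene, which began 1764 bp after the upstream TSS and 8860 bp after the downstream one. Over the gene, the share was 9.82%, 82.9%, 44.2% and 90.3%. H3K4me3 within the window was found in Glis3KO-LID alone, at 377 bp, where the region began 624 bp after the downstream TSS. With all RefSeq transcripts, Zic4 was also marked in WT-ND, Glis3KO-ND and WT-LID. The call in Glis3KO-LID was lost with 500 bp either side, with at least 500 bp covered, or with only regions of at least 1 kb. In every library a further H3K4me3 region of 890 to 1039 bp lay outside the window. It began 3086, 3127, 3040 and 3217 bp after the downstream TSS in the 4 libraries in turn.

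**Figure D3:**
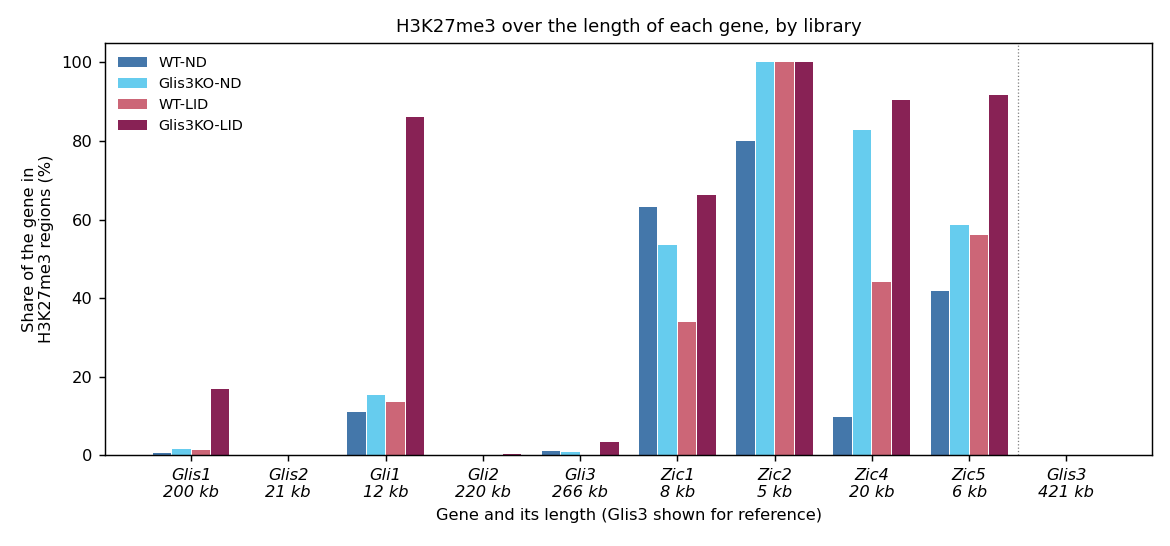
Bars give the share of each gene, in percent of its length, that lay in H3K27me3 regions in the 4 groups of 1 library each, for the 9 genes and Glis3, with gene lengths under the names and no error bars. Zic2 is at 80.0% or above in all groups, Gli1 is at 86.2% in Glis3KO-LID and at 15.3% or below in the others, and Glis2 and Glis3 are at 0% throughout.

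Over the 9 genes, the median share of the gene in H3K27me3 regions was 9.82%, 15.3%, 13.6% and 66.2% in the 4 libraries in turn. The median over all genes was 0% in each library, and 3.4%, 3.9%, 2.9% and 4.04% of all genes had a share above the median of the 9. In H3K4me3, the median share of the gene was 6.49%, 8.74%, 10.1% and 8.46%, against 1.77%, 1.72%, 1.88% and 1.4% over all genes.

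Comparing genotypes within a diet, H3K27me3 covered more of the window in Glis3KO-ND than in WT-ND at Glis1, Gli1, Zic1 and Zic4, which is 4 of 9 genes against 6.24% of all genes. Only genes marked in Glis3KO-ND could be higher there. These were 7 of the 9 and 1823 of all genes, and 1311 of the 1823 were higher. The values at Zic5 went the other way, 1588 bp in WT-ND and 1286 bp in Glis3KO-ND. On the LID, Glis3KO-LID was higher than WT-LID at Glis1, Gli1, Gli2, Gli3, Zic1 and Zic4, 6 of 9 against 15.4% of all genes, and lower at none. Here, only genes marked in Glis3KO-LID could be higher. These were 8 of the 9 and 3667 of all genes, and 3239 of the 3667 were higher. Zic2 and Zic5 could not be higher, since their windows were already full in WT-LID. The list of Glis3KO-LID was 18040 regions long against 2631 in WT-LID, and the part this had in the difference was not tested. Cell type markers with H3K27me3 at a start site were also more numerous there. In WT-LID and Glis3KO-LID they numbered 0 and 3 of 10 for follicular cells, 1 and 3 of 4 for C cells, 1 and 3 of 6 for fibroblasts, and 0 and 2 of 4 for endothelium. They numbered 0 and 1 of 5 for immune cells, 0 and 2 of 3 for parathyroid, 2 and 3 of 3 for skeletal muscle, and 0 of 3 in both for adipocytes. Their part in the result was not tested. H3K4me3 covered less of the window in Glis3KO-LID than in WT-LID at 7 of 9 genes, all but Glis2 and Zic4, as it did at 43.8% of all genes. Only genes with H3K4me3 in WT-LID could be lower. These were 8 of the 9 and 13224 of all genes, and 9205 of the 13224 were lower. Gli3 was among the 7 with 2001 bp in WT-LID and 1998 bp in Glis3KO-LID.

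Comparing diets in WT mice, the H3K27me3 length in the window was 0 bp in WT-ND and 828 bp in WT-LID at Glis1, 0 and 1176 bp at Gli1, and 0 and 2135 bp at Zic4. At Gli3 it was 2001 bp in WT-ND and 838 bp in WT-LID. Zic1 had 1322 and 1529 bp, Zic5 1588 and 2001 bp, Zic2 2001 bp in both, and Glis2 and Gli2 0 bp in both. The WT-LID regions at Glis1, Gli1 and Gli3 were under 2 kb wide. Zic4 was also marked in WT-ND with 2 kb either side or with all RefSeq transcripts. The share of all genes that differed between these diets was not computed. The H3K27me3 lists were of similar total length, 7.47 Mb in WT-ND and 7.5 Mb in WT-LID. With 1 library per diet, these differences have no replicate check.

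NKX2.1 and PAX8 are thyroid lineage factors that together bind the genes of thyroid hormone synthesis. Their peaks were 300 bp wide by construction, and 46636 NKX2.1 and 51586 PAX8 peaks were in the lists. An NKX2.1 peak lay within 50 kb of a TSS at 7 of the 9 genes, all but Zic1 and Zic4, and at 75.4% of all genes. A PAX8 peak did so at 9 of 9 and at 77.4% of all genes. Within 5 kb, NKX2.1 peaks were found at Gli1, Gli2 and Gli3, 3 of 9 against 35.4% of all genes, and PAX8 peaks at Glis2, Gli1, Gli2 and Gli3, 4 of 9 against 42.0%. No Zic gene and not Glis1 had a peak of either factor within 5 kb. Shared peaks of neighbouring genes counted once, there were 23 NKX2.1 and 19 PAX8 peaks within 50 kb, and 13 of each overlapped a peak of the other factor. That was 56.5% and 68.4%, against 50.8% and 45.9% of all peaks.

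Some NKX2.1 peaks within 50 kb of Gli3, Gli2, Glis1 and Zic5 are shown, with the letters of a searched motif in capitals. They are the nearest to these genes outside annotated exons, and all but that of Gli2 overlap a PAX8 peak. The closer peak at the Gli2 TSS and the peaks near Gli1 and Glis2 are not shown. Sequences are from the plus strand of GRCm38 at chr13:15460318-15460617 and chr13:15468463-15468762 for Gli3, chr1:119052186-119052485 for Gli2, chr4:107420266-107420565 for Glis1 and chr14:122453811-122454110 for Zic5.
Gli3, 3256 bp upstream: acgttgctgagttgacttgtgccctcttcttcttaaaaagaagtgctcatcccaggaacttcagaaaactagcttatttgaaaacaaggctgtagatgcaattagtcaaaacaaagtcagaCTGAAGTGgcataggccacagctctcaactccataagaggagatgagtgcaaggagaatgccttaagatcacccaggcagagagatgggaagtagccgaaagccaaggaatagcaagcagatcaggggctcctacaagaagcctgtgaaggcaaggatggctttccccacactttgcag
Gli3, intron 1: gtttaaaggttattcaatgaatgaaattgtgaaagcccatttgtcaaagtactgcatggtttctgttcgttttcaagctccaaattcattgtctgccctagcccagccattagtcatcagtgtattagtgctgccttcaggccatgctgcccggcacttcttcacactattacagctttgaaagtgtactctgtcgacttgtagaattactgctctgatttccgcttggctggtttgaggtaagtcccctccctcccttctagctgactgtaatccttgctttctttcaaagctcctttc
Gli2, intron 1: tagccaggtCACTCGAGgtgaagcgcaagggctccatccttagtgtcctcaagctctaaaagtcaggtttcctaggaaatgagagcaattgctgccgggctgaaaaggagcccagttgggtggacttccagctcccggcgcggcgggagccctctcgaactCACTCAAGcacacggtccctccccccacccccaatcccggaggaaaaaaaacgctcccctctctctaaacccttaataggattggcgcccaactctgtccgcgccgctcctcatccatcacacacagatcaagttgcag
Glis1, 14304 bp upstream: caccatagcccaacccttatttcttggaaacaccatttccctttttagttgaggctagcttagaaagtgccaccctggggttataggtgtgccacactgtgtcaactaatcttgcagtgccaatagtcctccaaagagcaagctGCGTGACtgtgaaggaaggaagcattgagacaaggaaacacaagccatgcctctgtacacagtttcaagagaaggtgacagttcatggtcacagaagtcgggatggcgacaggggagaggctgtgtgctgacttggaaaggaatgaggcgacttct
Zic5, 11698 bp downstream of the start site: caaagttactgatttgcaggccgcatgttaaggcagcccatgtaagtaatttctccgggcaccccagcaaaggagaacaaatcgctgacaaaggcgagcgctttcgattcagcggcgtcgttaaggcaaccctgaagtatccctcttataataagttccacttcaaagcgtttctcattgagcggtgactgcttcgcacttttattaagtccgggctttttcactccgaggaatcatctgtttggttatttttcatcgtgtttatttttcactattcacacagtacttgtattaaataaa

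The letters searched on both strands were CACTNNAG for NKX2.1, GTCANGC for PAX proteins, GACCACCCA for GLI and TGGGGGGT for GLIS. No match of 1 motif overlaps a match of another in the sequences shown. The upstream Gli3 peak and the Gli2 peak held the NKX2.1 letters and the Glis1 peak the PAX letters. The intronic Gli3 peak and the Zic5 peak held none of the 4. Among the 23 NKX2.1 peaks within 50 kb, 8 held the NKX2.1 letters, as did 35.9% of all NKX2.1 peaks. Among the 19 PAX8 peaks, 5 held the PAX letters, as did 19.8% of all PAX8 peaks. The GLI and GLIS letters were in none of these peaks. Over all NKX2.1 and PAX8 peaks, 0.208% and 0.297% held the GLI letters and 0.903% and 0.89% the GLIS letters. In the 6 promoters, the only match to any of the 4 was 1 match to the PAX letters in that of Zic1, letters found in 11% of all promoters of 300 bases.

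Gli2 had the most NKX2.1 peaks of the 9 genes. There were 8 NKX2.1 and 4 PAX8 peaks within 50 kb of its TSS. At least as many NKX2.1 peaks were found at 7.53% of genes, and at least as many PAX8 peaks at 41.4%. No other protein-coding TSS was nearer to any of these peaks. An NKX2.1 and a PAX8 peak, centred 42 and 112 bp before the TSS, overlapped each other at the promoter, inside the H3K4me3 region of all 4 libraries. A second NKX2.1 peak was centred 1284 bp after the TSS in intron 1, and a second PAX8 peak 1080 bp before it. Inside the whole gene there were 15 NKX2.1 and 22 PAX8 peaks, and 10 of each overlapped the other factor. This is 6.83 NKX2.1 and 10 PAX8 peaks per 100 kb. The median of the 2317 genes of at least 100 kb was 2.19 and 2.4, and 10% and 2.89% of them were as dense as Gli2.

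Gli3, of similar length, had 9 NKX2.1 and 10 PAX8 peaks, with 7 of each overlapping. Its density of 3.38 and 3.76 peaks per 100 kb was matched by 36.2% and 33.1% of such genes. Within 50 kb of its TSS, all 3 NKX2.1 and all 3 PAX8 peaks formed overlapping pairs. The pair 3256 and 3235 bp before the TSS lay in the H3K27me3 region of Glis3KO-LID and outside every H3K4me3 region. The pair in intron 1, 4889 and 4944 bp after the TSS, and the pair in intron 2, 47669 and 47699 bp after it, lay in no histone region of any library. Glis1 had 3 NKX2.1 and 5 PAX8 peaks in its length, or 1.5 and 2.5 per 100 kb. Its nearest pair lay 14304 and 14310 bp before the TSS. For comparison, Glis3 itself held 35 NKX2.1 and 32 PAX8 peaks, or 8.31 and 7.6 per 100 kb, as dense as 5.01% and 8.46% of genes of that length class.

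**Figure D4:**
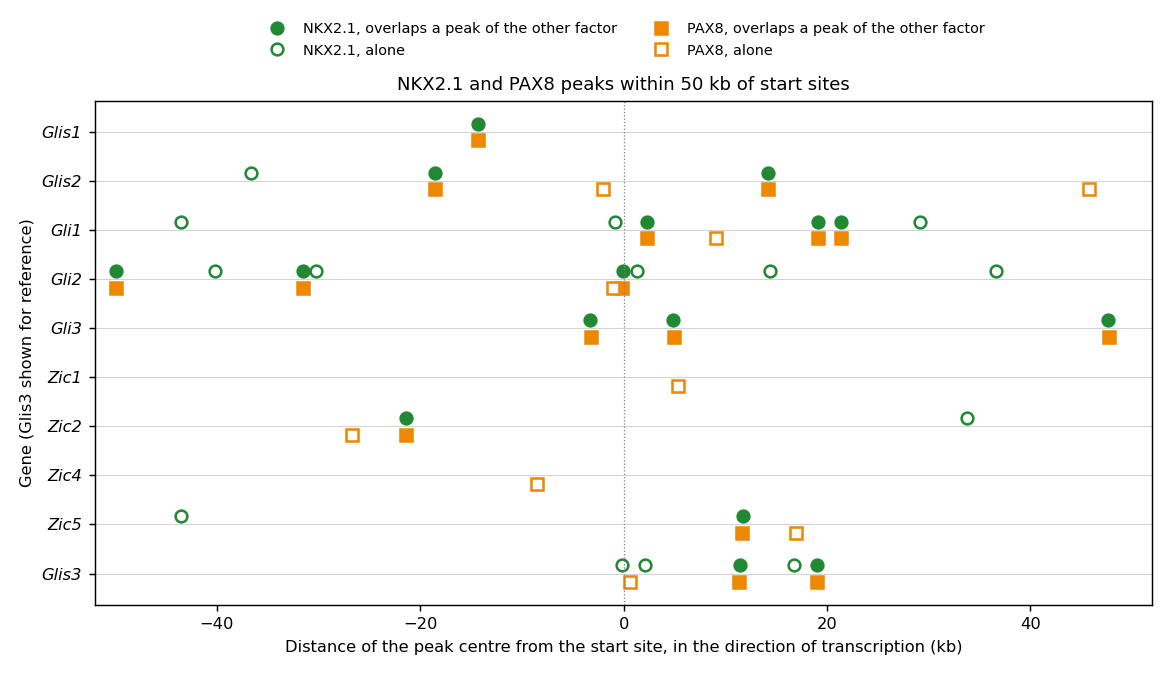
Points give the distance of each NKX2.1 (circles) and PAX8 (squares) peak centre from the TSS, in kb in the direction of transcription, within 50 kb of the 9 genes and Glis3. Filled points overlap a peak of the other factor and open points do not. Peaks cluster at the Gli2 TSS and within 5 kb of Gli1 and Gli3, while Zic1 and Zic4 share a single PAX8 peak.

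At Gli1, 6 NKX2.1 and 4 PAX8 peaks lay within 50 kb, but 4 and 3 of these were nearer to another gene. Gli1 has 5 other genes with a TSS within that distance, among them Arhgap9, Mars1, which encodes methionyl-tRNA synthetase, and Inhbe and Inhbc, which encode inhibin beta subunits. The peaks nearest to the Gli1 TSS were an overlapping pair in intron 2, 2271 and 2335 bp after it, and an NKX2.1 peak 864 bp before it. The intron pair lay in H3K4me3 regions in all 4 libraries, including WT-ND where the region stopped short of the TSS, and in the H3K27me3 region of Glis3KO-LID. At Glis2, 3 NKX2.1 and 4 PAX8 peaks lay within 50 kb, and a PAX8 peak 2050 bp before the TSS was the nearest. An overlapping pair in intron 2, 14169 and 14196 bp after the TSS, lay in no histone region.

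The Zic genes had 0 to 2 peaks of each factor within 50 kb, against medians over all genes of 2 NKX2.1 and 3 PAX8 peaks. Zic1 and Zic4 had no NKX2.1 peak within 50 kb and shared 1 PAX8 peak, in an exon of Zic1, 5307 bp after its TSS and 8511 bp before the upstream TSS of Zic4. It lay outside every H3K27me3 region. Zic2 and Zic5 shared 2 NKX2.1 and 2 PAX8 peaks. The pair nearest to a TSS was 11698 and 11690 bp after that of Zic5, beyond the end of the gene. It lay in H3K4me3 regions of WT-ND and Glis3KO-ND and in an H3K27me3 region of Glis3KO-LID. Of the distinct peaks within 50 kb of the 9 genes, 4 of 23 NKX2.1 and 6 of 19 PAX8 peaks lay in an H3K27me3 region of any library, against 1.58% and 2.98% of all peaks. All of those near the 9 genes lay in regions of Glis3KO-LID, the longest H3K27me3 list, and none in a region of WT-LID. The PAX8 peak 9087 bp after the Gli1 TSS also lay in a region of WT-ND. In H3K4me3 regions lay 8 of the 23 NKX2.1 and 5 of the 19 PAX8 peaks, against 13.3% and 16.4% of all peaks. Some of these lay nearer to the TSS of Tfap4, Mars1, R3hdm2 or Vasn than to that of a member of the 9. For both marks, the shares over all peaks were not limited to peaks within 50 kb of a TSS, so the sets are unlike.

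The Hedgehog pathway that acts on the GLI proteins was described with a list of 20 genes. Counts and lengths for these genes refer to the window within 1 kb of their TSSs. H3K4me3 was present in it at 15 of the 20 in all 4 libraries, against 56.6% of all genes. H3K27me3 was present at 4, 5, 5 and 9 of the 20 in the 4 libraries in turn, against 6.44%, 8.68%, 6.5% and 17.5% of all genes. All 20 had a peak of both factors within 50 kb, where 75.4% of all genes had one of NKX2.1 and 77.4% one of PAX8.

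All 3 ligand genes had H3K27me3 in at least 3 libraries. It covered 1573, 2001, 1909 and 2001 bp of the window of Shh, and 1875, 2001, 2001 and 2001 bp of that of Ihh, in the 4 libraries in turn. Dhh was at 0, 885, 1065 and 2001 bp. In the window of Shh, H3K4me3 covered 501 bp in WT-LID and 0 bp in the others, while 2241, 3100, 1706 and 2018 bp of H3K4me3 lay inside the gene. The windows of Ihh and Dhh had 0 bp of H3K4me3 in WT-ND and 859 to 1527 bp in the other libraries, while 501 bp in Ihh and 2058 bp in Dhh lay inside the genes in WT-ND. None of the 3 ligand genes had a peak of either factor within 5 kb.

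Among receptors, Ptch1, which binds the ligands and restrains Smo, had both marks in all 4 groups. H3K4me3 covered 3581, 3464, 3188 and 3339 bp and H3K27me3 974, 1259, 964 and 2001 bp around its TSSs. Hhip, a decoy receptor, had H3K27me3 of 0, 0, 1001 and 1851 bp and had H3K4me3 in all 4 libraries. Boc and Gas1, both co-receptors, had H3K4me3 in all 4 libraries and no H3K27me3. Cdon, a co-receptor, was the 1 gene of the list with neither mark in any library.

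The transducer Smo and the GLI-binding inhibitor Sufu had H3K4me3 and no H3K27me3 at their TSSs. H3K4me3 covered 1371, 1526, 1502 and 1218 bp at Smo and 1363, 1215, 2001 and 1148 bp at Sufu, and H3K27me3 was 0 bp at both in every library. The genes that acylate or release the ligands, Hhat, Disp1 and Scube2, had H3K4me3 in every library, and 1 of the 3, Scube2, had H3K27me3 in the window, in Glis3KO-LID alone. Inside Hhat, 3003 bp of H3K27me3 lay away from the window in that library. The 4 regulators of GLI proteins, Sufu, Kif7, Spop and Stk36, all had H3K4me3 in the window in every library and no H3K27me3 there in any. Inside the genes, H3K27me3 covered 1001 bp of Kif7 in WT-ND, and 2053 bp of Kif7 and 1001 bp of Stk36 in Glis3KO-LID.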

How the data were processed

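Before deposit, the authors discarded low-quality reads and adapters (cutadapt 1.12), kept unique Bowtie 1.2 alignments of single-end reads on mm10, and dropped duplicates (Picard 1.110). They called regions and peaks in each library with HOMER 4.10.3, the factor peaks against the matching input, and resized factor peaks to 300 bp. For the histone regions, the study's methods name no input. The deposited lists hold chromosome, start, end and name, with no score or count, so the unit here is covered length or number of regions. Lists that joined libraries, and rat lists, were not used.

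Start sites came from curated RefSeq transcripts of GRCm38 (21000 protein-coding genes, 26242 start sites). A region counted with 1 bp of overlap. Scripts ran in Python 3.11.15 with pandas 2.3.3, and the overlap code was tested on simulated data. Named were all 9 genes, Glis3, and Hedgehog and marker genes by list, of which some are not reported here. The genes, lists and motifs were chosen with earlier results of these data known. With 1 library per group, no test was made. Other windows, overlaps, start sites and list lengths were tried.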

Additional observations from a re-analysis of the deposited data

Results flagged for a closer look

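At 4 of the 9 genes, the H3K4me3 length within 1 kb of the start site differed between Glis3KO and WT in opposite directions on the ND and the LID. With 1 library per group, the difference between diets was not tested. At Glis1, Glis3KO minus WT was 315 bp on the ND and -266 bp on the LID, a change of -581 bp. At Gli1 it was 1753 and -426 bp, a change of -2179 bp, where WT-ND had no H3K4me3 in the window. Zic1 had differences of 648 and -929 bp, a change of -1577 bp, where Glis3KO-LID had none in the window. Zic5 had differences of 5 and -229 bp, a change of -234 bp. Over all 21000 genes, 5886 (28.0%) had differences of opposite sign for H3K4me3. The 21000 include genes with no H3K4me3 in the window in any library, which have no difference. Each of the 9 had H3K4me3 there in at least 1 library. Genes with H3K4me3 in the window numbered from 12611 to 13224 in the 4 libraries. The share among such genes alone was not computed, so 4 of 9 was not shown to be unusual. For H3K27me3, 1.8% of all genes had differences of opposite sign, and none of the 9 did.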

How the results depend on the processing

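No paired analysis was possible because each group had 1 library, and no library could be left out for the same reason. Of 180 recomputed values, 156 stayed within 1.5 times the reported one. Of the counts of genes with H3K4me3, H3K27me3 or both marks at a start site, 1 moved further: with H3K27me3 regions of at least 2 kb only, 4 genes were marked in WT-LID in place of 7, with Glis1, Gli1 and Gli3 lost, so that Gli3 was no longer marked in all 4 libraries. Genes with an NKX2.1 and a PAX8 peak numbered 3 and 4 within 5 kb in place of 7 and 9 within 50 kb. NKX2.1 peaks numbered 6 within 5 kb, 12 within 20 kb, 49 within 100 kb, 47 within 50 kb of the whole genes and 35 with all RefSeq transcripts, in place of 23. PAX8 peaks numbered 6 within 5 kb, 44 within 100 kb, 59 within 50 kb of the whole genes and 35 with all RefSeq transcripts, in place of 19. With lists of equal length, the median H3K27me3 share of the gene was 1.19% in WT-ND in place of 9.82%, and Zic4 was at 0% there. That cut fell among WT-ND regions of the smallest width, 1001 bp, which were kept or dropped by chromosome order. The Zic4 regions were dropped and the equally wide Glis1 region was kept, so both changes rest on that order. In Glis3KO-LID, Glis1, Gli2 and Gli3 were at 4.84%, 0% and 0.71% with lists of equal length. With 5 kb added on either side of the gene, the median in Glis3KO-ND was 30.4% in place of 15.3%. Single shares with those flanks were 29.5% for Zic1 and 19.9% for Zic4 in WT-ND, 30.4% for Gli1, 1.54% for Gli3 and 37.4% for Zic5 in Glis3KO-ND, and 0.569% for Gli3 in WT-LID. Read depth is unknown, and a gene without a region may carry the mark below the calling threshold.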
